A study of Mus musculus with 8 samples.

Results

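The genes followed in these sorted liver macrophages are 6 chemokine receptors, the oxysterol receptor Gpr183, and Ch25h, the enzyme that starts synthesis of the Gpr183 ligand. The 8 genes were chosen by their symbols (Ccr1, Ccr2, Ccr3, Cx3cr1, Cxcr3, Cxcr4, Gpr183 and Ch25h), and Gpr183 was selected on its higher level in KO libraries. The same comparison therefore serves only to describe these 8 genes, and no p is given for them. Whether a fit over all genes called them is stated as part of that description. They are 8 of the 56691 genes in the deposited table, and 7 of them passed the filter on low counts. Ch25h did not.

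The KO group is 4 libraries of Kupffer cells from Vsig4-/- mice, labelled VSIG4 KO, and the WT group is 4 libraries from WT mice. Mice of both groups carried B16F10 melanoma metastases in the liver and were sampled a week after the injection, so there is no tumour-free group. Kupffer cells are the resident macrophages of the liver, and B16F10 is a mouse melanoma line. The sort kept DAPI-negative, CD45+ Tim-4+ cells, and RNA was sequenced in bulk. How the knockout was made is not given in the sources used here, nor is the age, sex or strain of the mice. Nothing states that the libraries of a group came from separate animals, so the spread between them may be in part technical.

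Chemokine receptors are G protein-coupled receptors that steer leukocytes along gradients of small secreted proteins, the chemokines. Ccr2 brings monocytes to inflamed tissue, Cx3cr1 marks patrolling monocytes and several macrophage populations, and Cxcr3 guides activated T and NK cells towards interferon-induced ligands. Gpr183, also called EBI2, is the receptor for the oxysterol 7α,25-dihydroxycholesterol. Ch25h and Cyp7b1 make that oxysterol from cholesterol, and Hsd3b7 inactivates it.

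The libraries held 15264043 to 19513844 counts. Vsig4 had 9, 6, 2 and 4 counts in KO 1 to 4, against 40604, 46735, 22498 and 25498 counts in WT 1 to 4, in the direction of the labels. Markers of Kupffer cells and of other cells were found in unequal amounts. The 10 melanoma markers summed to 2433 to 12354 CPM (counts scaled to library size, with TMM factors) in KO and 415 to 5479 CPM in WT, with 10 of 10 higher in KO on average and none at 0. The 14 Kupffer markers summed to 7976 to 24672 CPM in KO and 20259 to 36234 CPM in WT, with 0 of 14 higher in KO and none at 0. KO 3 had the most melanoma and the least Kupffer RNA, and WT 1 and WT 2 had the least melanoma RNA. In these bulk samples fewer cells of a type and less RNA per cell cannot be told apart. Vsig4 was the sole gene of 15870 tested that passed an adjusted p of 0.05 in edgeR, while 671 genes had an unadjusted p under 0.05 with higher and 723 with lower values in KO.

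None of the 7 tested members was called in edgeR, where 0.00630% of all tested genes were. With the replicate number as a block, Gpr183 and Ccr3 were called higher, 2 of 7, where 8.98% of all tested genes were called higher in KO. DESeq2 called Gpr183 higher, 1 of 8, where 0.102% of genes with an adjusted p were called higher. Since the genes were chosen with this comparison known, nothing is read from these counts. Log2 fold changes were above 0 for 6 of 7 members, against 49.6% of all tested genes, with a median of 0.29 for the members and -0.003 for all tested genes. CPM in KO and WT did not overlap for 1 of 7 members, Gpr183, where 2.71% of all tested genes were without overlap and higher in KO.

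The promoter windows of 3 of these genes are shown from 250 bases before to 50 bases after the annotated start, from RefSeq (GRCm38.p6), read in the direction of the gene. Gpr183 and Ccr3 had the largest log2 fold changes among the 7, and Cxcr4 is one of the 2 most abundant of the 8. Capitals mark matches, on either strand, to 7 motifs: the TATA box (TATAAA), AP-1 (TGACTCA), CRE (TGACGTCA), PU.1 core (GAGGAAGT), GAS (TTCNNNGAA), GC box (GGGCGG) and CCAAT box (CCAAT).
Gpr183, chr14:121965144-121965443, minus strand: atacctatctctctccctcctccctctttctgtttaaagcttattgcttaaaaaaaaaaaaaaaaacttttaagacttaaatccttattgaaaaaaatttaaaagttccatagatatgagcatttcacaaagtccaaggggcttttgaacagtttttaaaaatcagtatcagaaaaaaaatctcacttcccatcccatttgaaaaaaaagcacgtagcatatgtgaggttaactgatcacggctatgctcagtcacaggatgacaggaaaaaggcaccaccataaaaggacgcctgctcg
Ccr3, chr9:124021721-124022020, plus strand: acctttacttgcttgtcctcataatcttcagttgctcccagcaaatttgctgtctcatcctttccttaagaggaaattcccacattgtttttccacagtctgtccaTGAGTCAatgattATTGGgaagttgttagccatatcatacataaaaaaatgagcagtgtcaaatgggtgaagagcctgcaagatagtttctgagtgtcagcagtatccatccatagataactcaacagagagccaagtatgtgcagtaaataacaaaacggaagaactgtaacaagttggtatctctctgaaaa
Cxcr4, chr1:128592250-128592549, minus strand: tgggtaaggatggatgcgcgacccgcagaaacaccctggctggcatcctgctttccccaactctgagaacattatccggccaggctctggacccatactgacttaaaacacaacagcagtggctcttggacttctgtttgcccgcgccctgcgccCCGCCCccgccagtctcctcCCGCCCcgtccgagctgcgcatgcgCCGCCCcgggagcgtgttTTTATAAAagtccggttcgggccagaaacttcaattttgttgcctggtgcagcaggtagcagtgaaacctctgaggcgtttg

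The 3 windows differed in base composition and in motif matches. The Gpr183 window had 35.3% G and C, 4 CpG dinucleotides and no match to any of the 7 motifs. The Ccr3 window had 39.0% G and C, 1 CpG, an AP-1 match that starts 144 bases before the annotated start and a CCAAT match. The Cxcr4 window had 59.3% G and C, 20 CpGs, 3 GC box matches, and 2 overlapping TATA matches, 1 on each strand, that start 32 and 30 bases before the annotated start. Over all 32851 windows of this length, 13.6% held the TATA letters, 5.20% AP-1, 1.79% CRE, 3.20% PU.1, 8.30% GAS, 35.7% the GC box and 37.4% CCAAT, and the median was 7 CpGs and 52.7% G and C. In the other 5 windows there was a CRE match and a TATA match in Ch25h, a PU.1 match in Cxcr3 and a CCAAT match in Cx3cr1, and no match in Ccr1 or Ccr2. These matches are letters in a window and say nothing of binding in these cells.

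Gpr183 was higher in every KO library than in any WT library, and the libraries of each group lay close together. Its levels were 8.17, 7.28, 7.73 and 8.22 CPM in KO 1 to 4, against 4.90, 4.26, 4.88 and 4.94 CPM in WT 1 to 4. The lowest KO library was 2.35 CPM above the highest WT library. The mean was 7.85 ± 0.437 CPM in KO and 4.75 ± 0.324 CPM in WT (SD, n = 4 each), 1.65-fold higher in KO, and the log2 fold change was 0.73 ± 0.154 (SE).

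**Figure D1:**
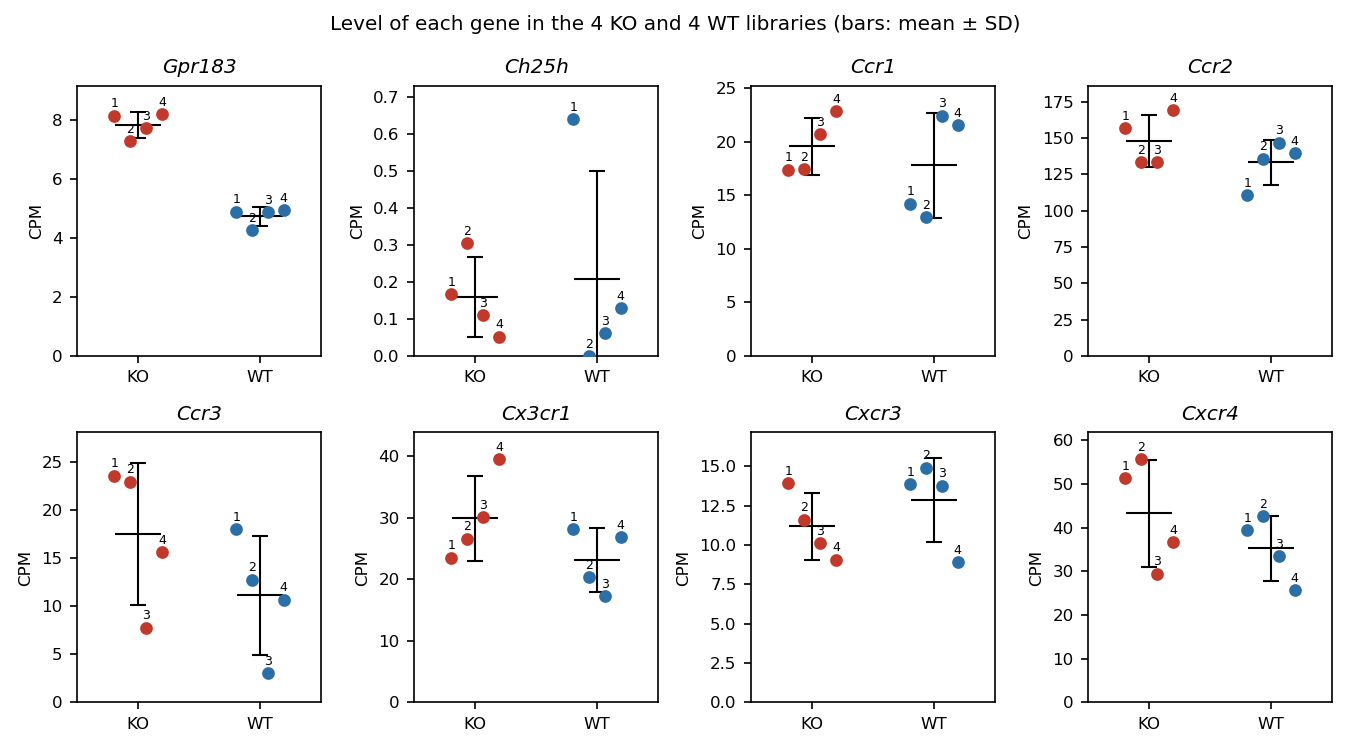
Level in CPM (vertical axes, starting at 0) of the 8 genes in KO libraries (red, left) and WT libraries (blue, right). Points are single libraries with their replicate number, and bars are the mean ± SD of 4. The 4 KO libraries of Gpr183 lie between 7.28 and 8.22 CPM, above all WT libraries, while KO and WT overlap for the other 7 genes.

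These levels rest on few reads. Gpr183 had 147, 143, 140 and 157 counts in KO 1 to 4, against 69, 76, 79 and 77 counts in WT 1 to 4. The coefficient of variation was 5.57% in KO and 6.83% in WT, below the 8.26% and 11.5% that counting error alone gives on average at these counts. Differences between libraries of the same number were 0.72, 0.76, 0.65 and 0.72 on the log2 CPM scale for numbers 1 to 4. A spread below counting error at such counts does not show that Gpr183 was steady between libraries. In the same libraries the melanoma sum was 2433 to 12354 CPM in KO and 415 to 5479 CPM in WT. The Kupffer sum was 7976 to 24672 CPM in KO and 20259 to 36234 CPM in WT. The melanoma sum was higher and the Kupffer sum lower in KO on average. Their part in the Gpr183 difference was not tested beyond the settings below.

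The difference in Gpr183 was of similar size in most settings tried, all of them fits to the libraries in which it was selected. Its log2 fold change was 0.69 with the melanoma covariate, which is the mean log2 CPM of the melanoma markers and not their sum. It was 0.69 without WT 1, WT 2 and KO 3, and 0.678 to 0.751 when single libraries were left out. When libraries were scaled by their Kupffer gene sum, the median over all genes moved to 0.80, and Gpr183, at 1.53, lay 0.72 above it. Gpr183 is known from B cells and dendritic cells as well as from macrophages. B cell markers summed to 102 to 161 CPM in KO and 96.3 to 231.5 CPM in WT (1 of 7 higher in KO on average, none at 0), and dendritic cell markers to 200 to 337 CPM in KO and 225 to 351 CPM in WT (3 of 7 higher, none at 0). KO and WT overlapped in both sums, and the part of these cells in the Gpr183 values was not tested.

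Gpr183 (ENSMUSG00000051212) lies on the minus strand of chromosome 14 at 122189963 to 122202607 in the positions deposited without a build. This places it inside Ubac2, a gene on the opposite strand. In GENCODE M21 (GRCm38), where Gpr183 spans chr14:121952551-121965195, no exon of another gene overlaps the exons of Gpr183. Ubac2 had 41.9, 37.9, 31.5 and 34.1 CPM in KO 1 to 4, against 41.1, 41.5, 33.5 and 33.8 CPM in WT 1 to 4. Ubac2 levels overlapped between the groups. The strand setting of the counting is not known, and the part of Ubac2 reads in the Gpr183 counts was not tested.

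Ch25h, the cholesterol 25-hydroxylase, was close to the detection limit in both groups. It had 3, 6, 2 and 1 counts in KO 1 to 4, against 9, 0, 1 and 2 counts in WT 1 to 4, or 12 counts in all in each group. A count of 0, as in WT 2, allows up to 3 counts, or 0.154 CPM, for counting error only. WT 1 was highest and WT 2 lowest, and the KO libraries lay between them. The annotated exons of Ch25h share 159 of 1387 bases with Gm26902 on the opposite strand, which had at most 4 counts in a library. A difference between KO and WT was not detectable at this depth.

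The other genes of oxysterol metabolism gave no common direction. Of 15 genes listed, 12 were tested, and 6 had a log2 fold change above 0 and 6 below, with a median of -0.10 beside -0.003 for all tested genes. None was called in edgeR without the block. The 3 with the highest mean FPKM (fragments per kilobase of exonic length, scaled to library size) were Nr1h3, which encodes an oxysterol-sensing nuclear receptor (LXRα), Cyp27a1, a sterol 27-hydroxylase, and Soat1, which esterifies cholesterol. Nr1h3 had 283 ± 105 CPM in KO and 330 ± 57.2 CPM in WT. Cyp27a1 had 95.2 ± 25.4 CPM in KO and 119 ± 9.56 CPM in WT. Soat1 had 298 ± 81.6 CPM in KO and 390 ± 66.2 CPM in WT (SD, n = 4 each). With the block, Soat1 fell (log2 fold change -0.42 ± 0.114, edgeR adjusted p = 0.0488) and Cyp39a1, an oxysterol 7α-hydroxylase, rose (1.45 ± 0.386, edgeR adjusted p = 0.0466), where 5.01% of all tested genes fell and 8.98% rose. Cyp39a1 had 9.50, 11.92, 40.48 and 18.33 CPM in KO 1 to 4, against 1.71, 1.96, 18.22 and 16.49 CPM in WT 1 to 4. It was high in the libraries with much melanoma RNA, whose summed markers were 2433, 3479, 12354 and 6438 CPM in KO 1 to 4, against 485, 415, 5479 and 4699 CPM in WT 1 to 4. The Kupffer sum, like Soat1, was lower in KO, in 4 of 4 numbers. The part of melanoma and Kupffer RNA in these 2 calls was not tested.

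The enzymes on either side of the Gpr183 ligand, named for their place in the pathway, were weakly expressed. Cyp7b1 had 0.861 ± 0.172 CPM in KO and 0.754 ± 0.145 CPM in WT. Hsd3b7 had 2.29 ± 1.11 CPM in KO and 3.24 ± 1.45 CPM in WT (SD, n = 4 each for both). KO and WT overlapped for both. Hsd3b7 was lower in KO in 4 of 4 numbers. The log2 fold change of Hsd3b7 was -0.50 ± 0.439 (SE) without and -0.50 ± 0.249 with the block (edgeR adjusted p = 0.56 and edgeR adjusted p = 0.199). That of Cyp7b1 was 0.19 ± 0.299 without the block (edgeR adjusted p = 0.735).

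Ccr2 and Cxcr4 were the most abundant members per exonic length. The median over the 8 libraries was 21.02 FPKM for Ccr2 and 20.88 FPKM for Cxcr4, and Ccr2 was the higher in 4 of 8 libraries, so their order is not set. Cxcr4 lay above Cxcr3 in 8 of 8. Medians of 7.07 FPKM for Cxcr3, 6.98 FPKM for Ccr1, 5.85 FPKM for Cx3cr1 and 4.34 FPKM for Ccr3 followed, and neighbours in this order kept it in only 5 or 6 of 8 libraries. Gpr183 had a median of 2.15 FPKM, below Ccr3 in 6 of 8 and above Ch25h, at 0.085 FPKM, in 8 of 8.

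**Figure D2:**
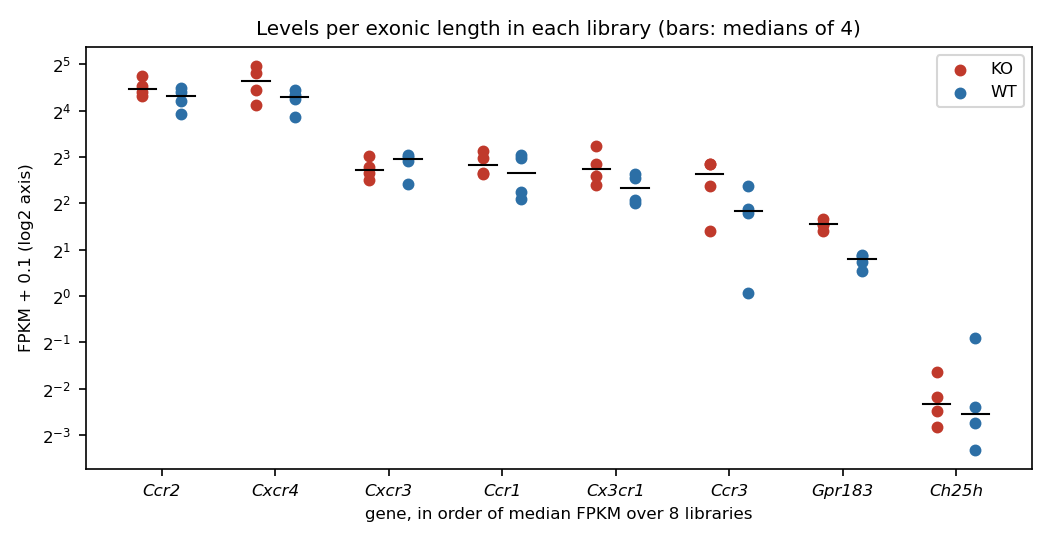
FPKM + 0.1 on a log2 axis (vertical) for the 8 genes in order of their median over the 8 libraries (horizontal), with KO libraries in red on the left and WT libraries in blue on the right of each gene. Bars are medians of 4. Ccr2 and Cxcr4 share the top near 21 FPKM, 4 receptors lie between 4.34 and 7.07 FPKM, and Ch25h is far below at 0.085 FPKM.

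Ccr3 was higher in KO within every number, and varied more between libraries than any other receptor of the 8. The receptor binds eotaxins and is best known from eosinophils. It had 23.61, 22.97, 7.79 and 15.7 CPM in KO 1 to 4, against 18.1, 12.8, 3.03 and 10.7 CPM in WT 1 to 4. The groups overlapped, and number 3 was lowest in both. The mean was 17.5 ± 7.42 CPM in KO and 11.1 ± 6.23 CPM in WT (SD, n = 4 each), with a log2 fold change of 0.65 ± 0.518 (SE) without and 0.75 ± 0.175 with the replicate number as a block.

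The Ccr3 difference depended on how the libraries were weighed. It was 0.34 on the log2 scale without WT 3 and 0.98 without WT 1. With the melanoma covariate it was 1.41, and 1.60 when WT 1, WT 2 and KO 3 were left out. KO 3 and WT 3, the lowest libraries for Ccr3, also had the lowest Kupffer sum of their groups, 7976 CPM in KO 3 and 20259 CPM in WT 3. The part of this in the Ccr3 values was not tested beyond these settings.

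Eosinophil and basophil markers were almost absent apart from Siglecf. The 10 markers summed to 3.42 to 6.67 CPM in KO and 4.04 to 7.23 CPM in WT, with 4 of 10 higher in KO on average. Prg3 and Prss34 had no counts, and Epx, the eosinophil peroxidase, had at most 2 counts in a library. Siglecf, which some macrophages also express, made up most of the sum with 4.91 CPM in KO and 5.24 CPM in WT on average. It had 45 to 119 counts in a library. The part of eosinophils and basophils in the Ccr3 values was not tested.

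Ccr1 and Ccr2 differed little between the groups. Ccr1, a receptor for Ccl3 and related chemokines, had 17.4, 17.4, 20.7 and 22.8 CPM in KO 1 to 4, against 14.2, 12.95, 22.4 and 21.6 CPM in WT 1 to 4. Numbers 3 and 4 were high and 1 and 2 low in both groups, and the groups overlapped. The log2 fold change of Ccr1 was 0.14 ± 0.211 (SE), and it was -0.15 with the melanoma covariate and -0.19 without WT 1, WT 2 and KO 3. Its direction was therefore not stable.

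Ccr2 had 157, 133.2, 133.1 and 169 CPM in KO 1 to 4, against 110.6, 136, 147 and 139.5 CPM in WT 1 to 4. The groups overlapped, with KO 4 highest and WT 1 lowest. The mean was 148 ± 17.9 CPM in KO and 133.1 ± 15.7 CPM in WT (SD, n = 4 each), and the log2 fold change was 0.15 ± 0.13 (SE). Monocyte markers, by contrast, summed to 292 to 480 CPM in KO and 541 to 644 CPM in WT, with 1 of 8 higher in KO on average and none at 0. Most of that sum was Plac8 and Fn1. The classical monocyte marker Ly6c2 had 13.96 CPM in KO and 16.2 CPM in WT on average.

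Cx3cr1, the fractalkine receptor, had 23.5, 26.6, 30.2 and 39.5 CPM in KO 1 to 4, against 28.1, 20.3, 17.2 and 26.8 CPM in WT 1 to 4. KO 3 and KO 4 lay above all WT libraries, and the others overlapped. The log2 fold change was 0.37 ± 0.213 (SE), and it was 0.20 without KO 4. The annotated gene spans 9 other genes in the deposited positions, but in GENCODE M21 its exons share 78 bases with 1 of them, Gm33858 on the opposite strand, which had 4 to 16 counts.

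Cxcr3 was the single tested member with a lower mean in KO. It had 13.9, 11.6, 10.1 and 9.06 CPM in KO 1 to 4, against 13.9, 14.9, 13.8 and 8.92 CPM in WT 1 to 4. All 4 KO libraries lay within the range of WT, and number 4 was lowest in both groups. The log2 fold change was -0.20 ± 0.210 (SE), 0.00 with the melanoma covariate and 0.03 without WT 1, WT 2 and KO 3, so no direction is given.

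Cxcr4, the receptor for Cxcl12, had 51.3, 55.7, 29.5 and 36.8 CPM in KO 1 to 4, against 39.4, 42.7, 33.5 and 25.7 CPM in WT 1 to 4. KO 1 and KO 2 lay above all WT libraries, while KO 3 lay below WT 3. The log2 fold change was 0.29 ± 0.233 (SE), and it was 0.60 with the melanoma covariate and 0.70 without WT 1, WT 2 and KO 3.

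**Figure D3:**
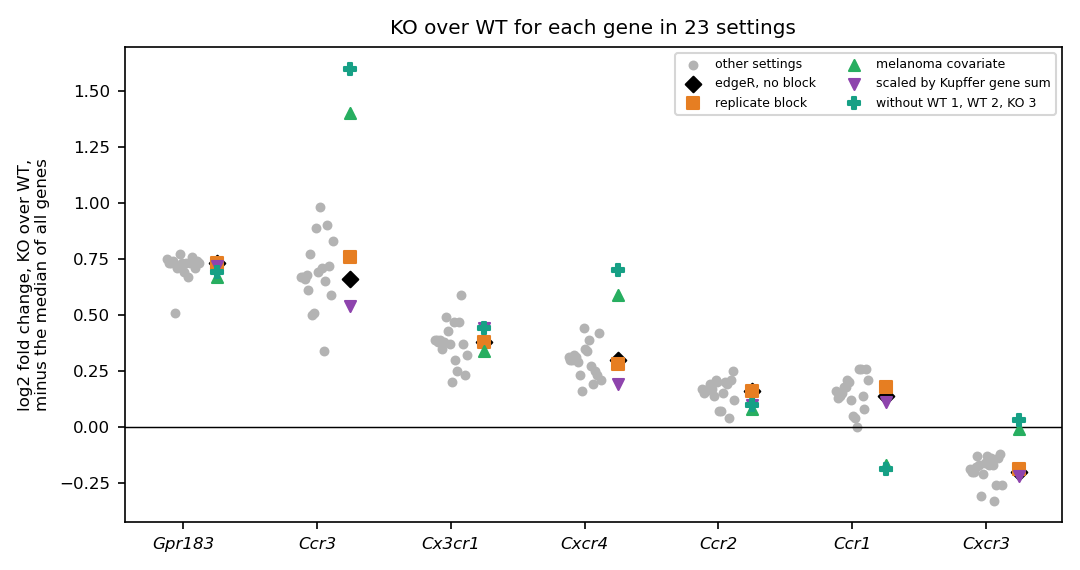
Log2 fold change of KO over WT, minus the median over all genes in the same setting (vertical axis), for the 7 tested genes (horizontal axis) in 23 settings. Black diamonds are edgeR without a block, colours mark named settings and grey points the others. Gpr183 keeps near 0.73 in most settings, Ccr3 reaches 1.60, and Ccr1 and Cxcr3 lie on both sides of 0.

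Each member was then set against the summed markers of a single cell type or response, over the 8 libraries. The pairings do not cover every cell type in which a member is known. Gpr183 was set against melanoma markers, not against B cell or dendritic cell markers. Ccr3 was set against Kupffer markers, not against eosinophil markers. None of the 8 relations passed Benjamini-Hochberg adjustment. The T cell sum, of 12 genes, was 57.0 to 241 CPM in KO and 88.0 to 271 CPM in WT, with 3 of 12 higher in KO on average and none at 0. Cxcr3 was related to it at Pearson r = 0.755 (exact permutation p = 0.045, adjusted p = 0.159) and Spearman rho = 0.857 (exact permutation p = 0.011, adjusted p = 0.062), and at r = 0.578 once KO 1 and WT 2, the farthest from the median sum, were left out. Cxcr4 was related to the same sum at r = 0.748 (exact permutation p = 0.038, adjusted p = 0.159) and rho = 0.738 (exact permutation p = 0.046, adjusted p = 0.122), and at r = 0.710 with the same omission. With 4 libraries in each genotype, no within-genotype value is given.

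Cxcr3 did not keep a fixed ratio to T cell transcripts. Per 100 counts of Cd3e, Cd3d and Cd3g there were 21.6, 26.5, 59.8 and 67.6 Cxcr3 counts in KO 1 to 4, against 35.7, 21.98, 63.9 and 39.5 in WT 1 to 4. The ratio was high in KO 3 and KO 4, with few Cd3 counts, and low in KO 1 and WT 2, with many. WT 4, with 352 Cd3 counts, was lower than WT 3, with 349. Cd3 counts are the denominator of the ratio, so nothing is read from this pattern. Cxcr4 counts per 100 Cd3 counts varied too, from 62.9 in WT 2 to 274.2 in KO 4.

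Ccr1 ran against the Kupffer sum (r = -0.670, exact permutation p = 0.060, adjusted p = 0.159; rho = -0.833, exact permutation p = 0.015, adjusted p = 0.062), with r = -0.955 without KO 3 and WT 1. Receptor and sum are shares of a single library total, which the permutation does not allow for. For Gpr183 and the melanoma sum r was 0.597 (exact permutation p = 0.144, adjusted p = 0.287) and rho 0.524 (exact permutation p = 0.197, adjusted p = 0.288). Without WT 1 and WT 2, the farthest from the median melanoma sum, r was -0.003. Gpr183 and the melanoma sum were both higher in KO on average, and Gpr183 was selected on that difference. The values over the pooled 8 libraries contain this difference, so nothing is read from this relation. Ccr3 with the Kupffer sum, Ccr2 and Cx3cr1 with the monocyte sum, and Ch25h with interferon-stimulated genes had adjusted exact permutation p-values from 0.364 to 0.981 for r. The Kupffer, monocyte and interferon-stimulated sums were lower in KO on average. Pooled values with these sums, that of Ccr1 included, contain this difference between the groups. A low pooled r therefore does not show that a member and a sum are unrelated.

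**Figure D4:**
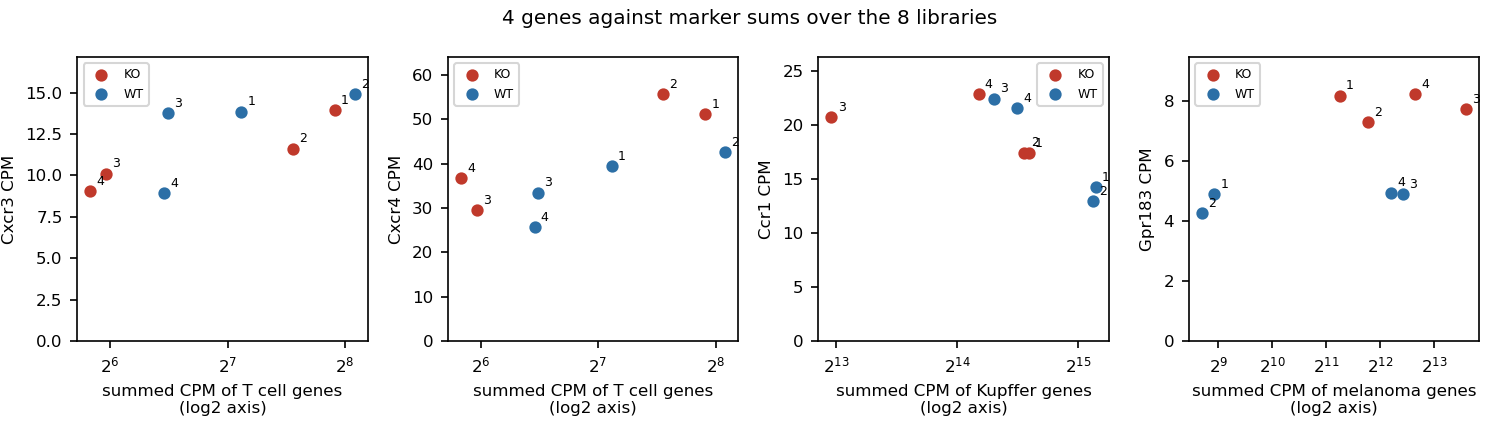
CPM of Cxcr3, Cxcr4, Ccr1 and Gpr183 (vertical axes, starting at 0) against the summed CPM of marker genes (horizontal log2 axes) in KO libraries (red) and WT libraries (blue), numbered by replicate. For Cxcr3 and Cxcr4 with T cell RNA, r was 0.755 and 0.748, and neither relation passed adjustment (exact permutation, adjusted p = 0.159 for each). Gpr183 lies between 7.28 and 8.22 CPM in KO and between 4.26 and 4.94 CPM in WT. The melanoma sum is also higher in KO on average.

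The genes with the most similar profile to Gpr183 over the 8 libraries, by Pearson r of log2 CPM among 10929 genes with a mean of at least 1 FPKM, were Dynlt1b (0.962), a dynein light chain with near-identical copies, Slx4ip (0.961), Vps52 (0.945), Lsm11 (0.938) and Kcnab2 (0.937). Gpr183 was selected on its difference between KO and WT, and its profile contains that difference. Genes that share the difference rank high, so nothing is read from the Gpr183 list. For Cxcr4 the list was Mtmr12, Taf11, Trmt2a, Ccdc69 and Klrd1, an NK and T cell receptor chain, with r from 0.945 to 0.960. For Cxcr3 it was Hdac7, Ap5m1, Tspyl2, Fbxo34 and Dpp4, with r from 0.942 to 0.958. Ccr3 was closest to B4galt7 (0.970), Ccr1 to Gin1 (0.968), Ccr2 to Srsf4 (0.948) and Cx3cr1 to Cdk5rap3 (0.938). The closest genes were the highest of many values over 8 libraries, and no other receptor or ligand described here was among the first 5 for any member.

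The ligands of these receptors mostly had lower values in KO. Of 16 listed ligand genes 15 were tested, 13 with a log2 fold change below 0 and 2 above, with a median of -0.805 beside -0.003 for all tested genes. None was called in edgeR without the block. The 3 with the highest mean FPKM were Ccl6 and Ccl24, made by macrophages, and the monocyte attractant Ccl2, a Ccr2 ligand. Ccl6 had 592 ± 169 CPM in KO and 850 ± 84.95 CPM in WT. Ccl24, a Ccr3 ligand, had 110.1 ± 44.4 CPM in KO and 130.3 ± 40.0 CPM in WT. Ccl2 had 33.03 ± 11.8 CPM in KO and 60.5 ± 6.88 CPM in WT (SD, n = 4 each).

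The groups did not overlap for 4 of the 15 ligands, Ccl2, Ccl6, Ccl7 and Cxcl11, all lower in KO, where 2.85% of all tested genes were without overlap and lower in KO. With the block 3 fell, where 5.01% of all tested genes did. These were Ccl2 (log2 fold change -0.93 ± 0.174, edgeR adjusted p = 0.0256), Ccl7, another Ccr2 ligand (-0.89 ± 0.228, edgeR adjusted p = 0.0425), and Cxcl9, a Cxcr3 ligand (-1.47 ± 0.344, edgeR adjusted p = 0.0351). The median of the ligands was -0.38 with the melanoma covariate and -0.51 without WT 1, WT 2 and KO 3, and with Kupffer scaling it was 0.07 where that of all genes was 0.80. Interferon-stimulated genes also had lower values in KO. The 10 listed summed to 463 to 1347 CPM in KO and 1105 to 1978 CPM in WT, with 0 of 10 higher in KO on average and none at 0. Immediate-early genes, which dissociation of a tissue is known to induce, moved the same way. The 14 listed, such as Fos and Egr1, summed to 2528 to 4644 CPM in KO and 4567 to 6871 CPM in WT, lower in KO in 4 of 4 numbers, with 2 of 14 higher in KO on average and none at 0. The Kupffer, monocyte, sinusoidal endothelial and stellate cell marker sums were lower in KO in 4 of 4 numbers too. The melanoma sum was higher in KO in 4 of 4 numbers, and the other cell type sums were not lower in every number. The part of any of these in the ligand values was not tested.

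**Figure D5:**
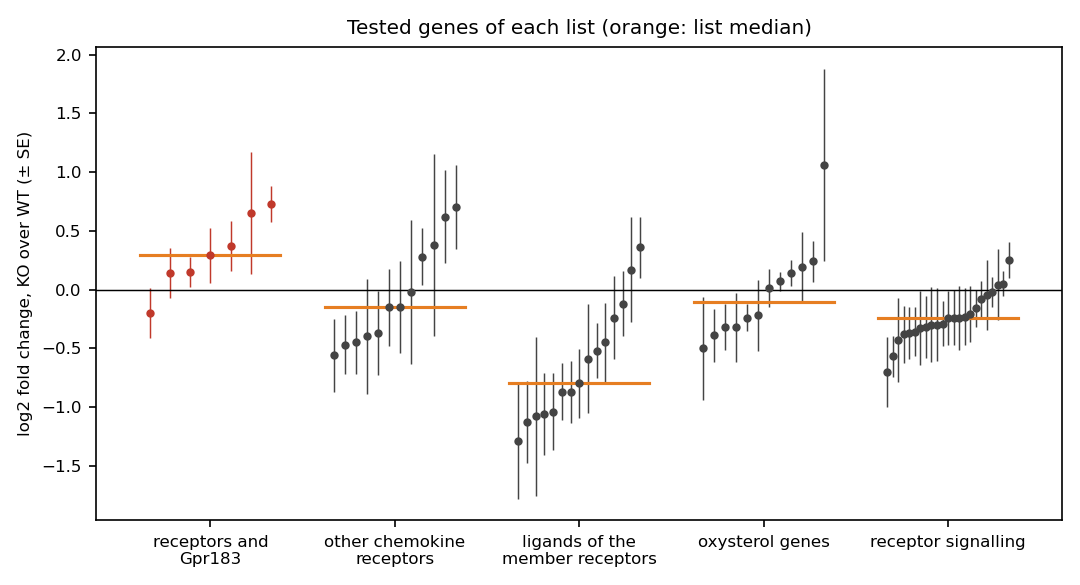
Log2 fold change of KO over WT ± SE (vertical axis) for every tested gene of 5 lists (horizontal axis): the chemokine receptors with Gpr183, the other chemokine receptors, the ligands, oxysterol genes and receptor signalling genes. Orange bars are list medians. The median is 0.29 for the first list, chosen in part on this comparison, and -0.805 for the ligands.

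The remaining chemokine receptors did not lean towards KO. Of 19 listed, 12 were tested, 4 with a log2 fold change above 0 and 8 below (median -0.15), and none was called without the block. Cmklr1, the chemerin receptor, had 133.3 ± 58.6 CPM in KO and 172 ± 46.2 CPM in WT. Ccrl2, a chemerin-binding receptor, had 28.7 ± 7.64 CPM in KO and 39.8 ± 10.9 CPM in WT (SD, n = 4 each). The median of this list was 0.13 with the melanoma covariate, on the other side of 0.

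Genes that transmit or end receptor signals mostly had slightly lower values in KO. All 23 listed genes were tested, 20 with a log2 fold change below 0 (median -0.25), and none was called without the block. Arrb2, a β-arrestin that takes activated receptors out of service, had 455 ± 178 CPM in KO and 561 ± 128 CPM in WT. Rgs1 had 819 ± 285 CPM in KO and 1327 ± 366 CPM in WT. Rgs2 had 445 ± 72.2 CPM in KO and 661 ± 112 CPM in WT (SD, n = 4 each). The products of both shorten G protein signals. With the block both fell, Rgs1 by a log2 fold change of -0.72 ± 0.111 and Rgs2 by -0.57 ± 0.098 (edgeR adjusted p = 0.0254 for each). The immediate-early sum averaged 3613 CPM in KO and 5629 CPM in WT. The Kupffer sum averaged 18813 CPM in KO and 28850 CPM in WT. Both sums were lower in KO in 4 of 4 numbers. Their part in the Rgs1 and Rgs2 values was not tested. The median of the 23 was 0.08 with the melanoma covariate, so the direction of this list was not stable either.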

How the data were processed

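RNA of 4 KO and 4 WT libraries was analysed. The submitters' processing notes name HTSeq 0.6.1 and mm10. The aligner, strand setting and gene annotation used are each not given in the sources used here, so reads of a gene and an antisense partner could not be told apart. The deposited table holds raw counts per gene, per the file headers, beside the authors' FPKM values, which matched count, exonic size and total within 0.015 in 100% of values. The deposited positions and sizes are other numbers, used as given. They differ from those of GENCODE M21 on GRCm38, which were used separately. In column names K was read as KO and C as WT, with the number taken from the title.

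The design named edgeR for a file of counts, which this is. Genes were kept by filterByExpr (15870) and TMM scaling was applied. KO was set against WT by the edgeR 4.0.16 (R 4.3.3) quasi-likelihood test, 2-sided, with Benjamini-Hochberg adjustment and a threshold of 0.05. Log2 fold changes are unshrunken, with SEs from the F statistic. Alternatives used DESeq2 1.42.0, limma 3.58.1 on log2(FPKM + 1) or log2(FPKM + 0.1), other scalings and no filter. A melanoma covariate and left-out libraries were also tried. The fit without WT 1, WT 2 and KO 3 and the blocked fits without a pair were chosen after seeing the data. The 8 genes and all lists were chosen with earlier results of these data known. Named from each list were genes past the threshold or, failing that, the 3 with the highest mean FPKM. Some results of this rule are not reported here. Genes called under the block, genes without overlap and enzymes of the Gpr183 ligand were added after their values were seen.

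Over all tested genes, deviations from the genotype means of KO and WT libraries with the same number had correlations of 0.561, 0.544, 0.660 and 0.290 (numbers 1 to 4). All exceed 0.1, so blocked values are given where they change a call. The best match had the same number for KO 2, KO 3, WT 1 and WT 3. KO 1 matched WT 2 best, KO 4 matched WT 3, WT 2 matched KO 1 and WT 4 matched KO 3. No label states the pairing, and these correlations do not settle whether a number marks a pair. No 2 libraries of a group agreed within sampling noise (chi-square per degree of freedom of at least 10.0). On simulated counts for 15599 genes the edgeR comparison of KO with WT recovered 42% of 2-fold and 87% of 4-fold changes, among genes above a log2 CPM of 2, with 5 false among 134 calls. The simulation drew each gene independently, without the variation that genes share between these libraries. Its rates therefore need not hold for the real counts.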

Additional observations from a re-analysis of the deposited data

Results flagged for a closer look

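Of 44 groups of 4 libraries examined, 3 had a library far from the other 3, where chance alone gives about 1 in 20. Gpr183 in WT 2, at 4.26 CPM, lay below the other WT libraries at 4.88 to 4.94 CPM, a gap of 0.912 of the range, which is itself narrow. WT 3 had the highest hepatocyte marker sum, 1757 CPM against 386 to 560 CPM in the other WT libraries. WT 3 also had the highest stellate cell and fibroblast marker sum, 292 CPM against 176 to 193 CPM. Gpr183 in WT 3, at 4.88 CPM, lay within the range of the other WT libraries.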

How the results depend on the processing

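The number of genes called, 1, was 36 with DESeq2, 2 without the filter, and 1 to 2 when single libraries were left out (2 without KO 2 or KO 3). With the replicate block it was 2220, and 207, 2, 1 and 2229 without pairs 1 to 4. The number of members called, 0, was 1 with DESeq2, 2 with the replicate block, and 1 of 7 with the block and without pair 4, where Ccr3 stayed called. It was 0 with the block without pairs 1, 2 or 3, and 0 when single libraries were left out. Blocked calls thus depended on the pairs in the fit. Log2 fold changes of Gpr183 (0.551 to 1.526), Ccr3, Cx3cr1, Cxcr4 and Ccr2 were above 0 in 22 of 22 alternatives, that of Ccr1 in 20 and that of Cxcr3 in 2. All alternatives reuse the same libraries. Gpr183 was selected as higher in KO and did not overlap between the groups, so nothing is read from its constant sign. Scaling by Kupffer genes moved the median of all genes to 0.80, and Cxcr3 with it to 0.58. Without the 2 farthest libraries, r was -0.003 for Gpr183 with melanoma and -0.184 for Ch25h with interferon-stimulated genes, in each case of the other sign. The causes were not tested. Ch25h, with 24 counts in all, is limited by depth.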
